A study of Mus musculus with 3 samples.

Results

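The Msx and Dlx genes encode homeodomain transcription factors, and GLI3 peaks around the 8 members Msx1, Msx2 and Dlx1 to Dlx6 were taken from a ChIP-seq peak list of mouse forelimb buds. A peak was a member if its summit lay within 100 kb of any annotated transcription start site (TSS) of these genes, whatever its false discovery rate (FDR), and peaks shared by paired Dlx genes were counted once. This gave 42 of the 17149 listed peaks. The 6 Dlx genes lie in 3 convergent pairs (Dlx1/Dlx2, Dlx3/Dlx4 and Dlx5/Dlx6), so the 8 genes form 5 loci. The 42 peaks were spread unevenly, with 10 at Msx1, 3 at Msx2, 15 at Dlx1/Dlx2, 1 at Dlx3/Dlx4 and 13 at Dlx5/Dlx6.

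GLI3, a transcriptional effector of Hedgehog (HH) signaling, acts largely as a repressor where the HH signal is low. Msx1 and Msx2 are classical targets of BMP signaling and act in limb mesenchyme and ectoderm. Dlx genes act in the apical ectodermal ridge, where Dlx5 and Dlx6 are needed for normal digit formation, and also in the forebrain and the branchial arches. BMP signals reach their targets through phosphorylated SMAD proteins, and Msx and Dlx proteins themselves bind short AT-rich sites.

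There were 3 libraries of forelimb buds at E10.5 (embryonic day, 32 to 35 somites, mixed strain background), 2 of GLI3-FLAG ChIP and 1 of input chromatin, and the labels give 2 litters of limb buds for each reaction. The protein was pulled down through a FLAG tag on the endogenous Gli3 allele, according to the methods of the study, while the genotype label reads wild type. The list gives a single value for each peak, with none for either replicate, so replicate error could be attached to no value here. A peak value is the maximum log2 fold enrichment of ChIP over input, and peaks with an FDR under 0.05 are called GLI3 binding regions (GBRs). Whole limb buds hold both ectoderm and mesenchyme, so binding in fewer cells and weaker binding in each cell cannot be told apart. The list measures binding and not expression, so the tissue could not be checked against marker genes.

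The sequences at the summits are shown first because they carry the comparison of GLI motifs. Both strands were searched within 250 bp of each summit for GACCACCCA, and a match with 1 mismatch or none was taken as a GLI motif. It was found within this window at 3 of the 42 peaks, and the reference stretches that hold it are printed with the motif in capitals (mm10, GRCm38.p6, plus strand). The first is the intergenic Dlx1/Dlx2 peak ranked 9651, chr2:71538497-71538597, in which the consensus is exact and covers the summit. The second, chr2:71543085-71543133, is near the intergenic Dlx1/Dlx2 peak ranked 8228, and its motif lies within 250 bp of that summit but outside the listed peak. The third is the GBR in Dlx4 ranked 7163, chr11:95145077-95145177. The fourth lies just outside the 100 kb limit on the Dlx2 side, in the GBR ranked 2957, chr2:71655922-71656022, and holds its motif, with 1 mismatch, on the minus strand.
Dlx1/Dlx2 peak 9651: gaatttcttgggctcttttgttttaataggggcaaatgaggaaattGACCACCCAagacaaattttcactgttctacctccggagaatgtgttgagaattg
Beside Dlx1/Dlx2 peak 8228: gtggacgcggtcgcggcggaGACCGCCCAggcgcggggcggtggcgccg
Dlx4 peak 7163: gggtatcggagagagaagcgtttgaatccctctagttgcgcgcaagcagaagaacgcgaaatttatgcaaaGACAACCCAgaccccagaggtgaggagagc
Dlx2 side peak 2957: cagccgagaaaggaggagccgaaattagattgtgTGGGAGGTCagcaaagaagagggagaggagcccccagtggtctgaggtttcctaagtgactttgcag

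The most enriched regions of the Msx1 locus and the best-ranked peak of Dlx5/Dlx6 are shown next, since none of them held a GLI motif within 250 bp of the summit. The Msx1 stretches are chr5:37918007-37918297 (rank 188) and chr5:37893822-37893972 (rank 855) on the plus strand, and the Msx1 promoter, chr5:37824642-37824762 (rank 2478), on the minus strand in the direction of transcription. Another Msx1 stretch, chr5:37895452-37895512 on the plus strand (rank 12288), and the stretch of Dlx5/Dlx6, chr6:6856422-6856682 on the plus strand (rank 7736), have the homeodomain site TAATTA in capitals. In the peak ranked 188 the capitals mark GGCGCC, a palindrome bound by SMAD1 and SMAD5. The last is the region before Dlx2, chr2:71546977-71547127 (rank 4674), on the minus strand, which holds none of the 3 motifs in the stretch printed. A GGCGCC lies beyond it, 202 bp from the summit.
Msx1 peak 188: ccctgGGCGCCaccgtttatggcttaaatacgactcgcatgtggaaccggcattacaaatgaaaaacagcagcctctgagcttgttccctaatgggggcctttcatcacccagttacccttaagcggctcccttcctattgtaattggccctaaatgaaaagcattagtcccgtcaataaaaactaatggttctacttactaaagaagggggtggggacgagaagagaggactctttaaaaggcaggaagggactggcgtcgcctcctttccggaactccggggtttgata
Msx1 peak 855: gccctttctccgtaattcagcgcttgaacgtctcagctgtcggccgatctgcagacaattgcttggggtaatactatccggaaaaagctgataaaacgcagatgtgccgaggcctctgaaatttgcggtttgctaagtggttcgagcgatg
Msx1 promoter peak 2478: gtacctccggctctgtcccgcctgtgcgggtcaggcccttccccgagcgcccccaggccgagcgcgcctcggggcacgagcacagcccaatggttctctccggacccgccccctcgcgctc
Msx1 peak 12288: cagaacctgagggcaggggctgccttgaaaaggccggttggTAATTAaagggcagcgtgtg
Dlx5/Dlx6 peak 7736: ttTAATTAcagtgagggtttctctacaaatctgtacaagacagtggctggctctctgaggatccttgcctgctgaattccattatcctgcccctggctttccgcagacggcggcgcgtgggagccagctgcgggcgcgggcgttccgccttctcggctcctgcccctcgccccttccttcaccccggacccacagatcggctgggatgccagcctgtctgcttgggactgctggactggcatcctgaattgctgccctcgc
Dlx2 peak 4674: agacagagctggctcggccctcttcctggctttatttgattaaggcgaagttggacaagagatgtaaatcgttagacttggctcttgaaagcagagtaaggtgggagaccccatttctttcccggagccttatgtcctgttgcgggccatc

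To ask how much of the listed signal near these genes passed the threshold of the study, the FDR of each peak was examined. There were 9 GBRs among the 42 peaks (21.4%, 95% Wilson interval 11.7 to 35.9), compared with 42.5% of all listed peaks. The interval covers counting error over peaks only, and neighbouring peaks are not independent. At an FDR under 0.01 the members held 5 GBRs (11.9%, 5.19 to 25), compared with 28.9% of the list. The 9 GBRs were 4 at Msx1, 4 at Dlx1/Dlx2 and 1 at Dlx4, with none at Msx2 or Dlx5/Dlx6. Of the 9, 4 sat at an FDR of 0.0374, a step shared by 795 listed peaks, and their log2 fold enrichments ran only from 2.32 to 2.36. With Dlx5/Dlx6 and Dlx1/Dlx2 both left out, an alternative chosen after seeing the data, 5 of the remaining 14 peaks were GBRs (35.7%).

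The median log2 fold enrichment of the 42 peaks was 2.12 (2.06 to 2.2, by binomial order statistics), compared with 2.23 for all listed peaks. The values ran from 1.74 to 4.11. The median −log10 of the Poisson p-value was 7.48 against 9.55 in the list, while the median length was 250 bp in both. Among GBRs only, the members had a median log2 of 2.55 (n = 9) and the whole list 2.69. Above the upper quartile of the list, 2.60, were 3 peaks at Msx1 and 1 at Dlx2.

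**Figure D1:**
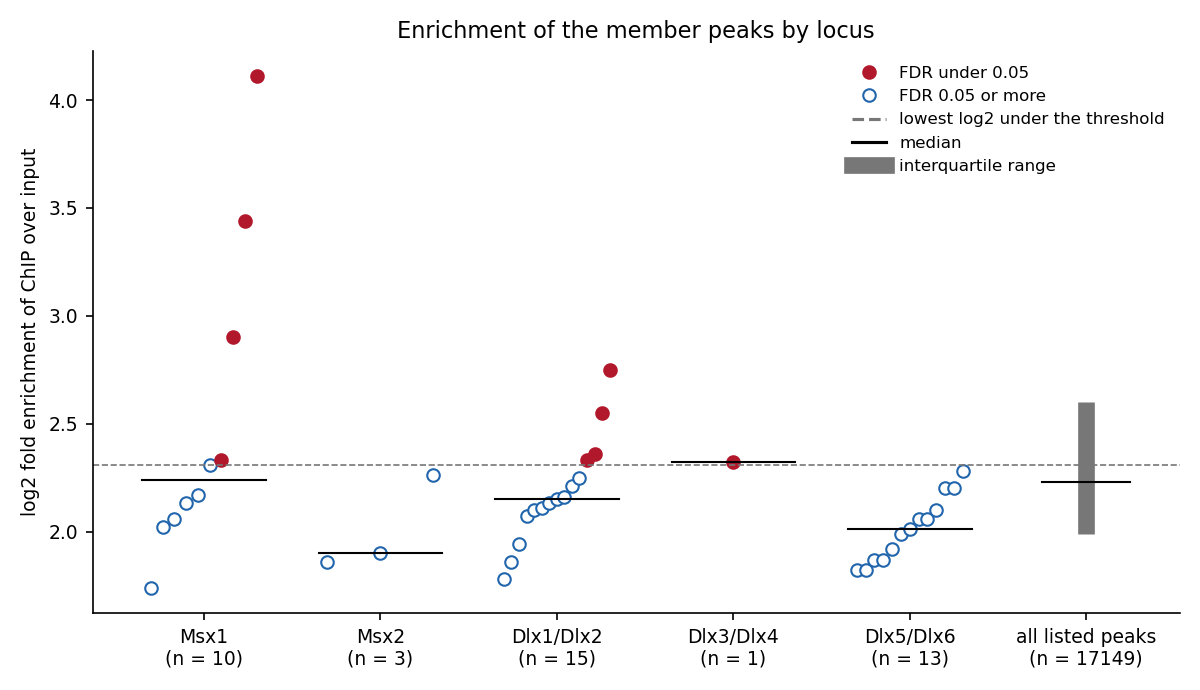
Log2 fold enrichment of ChIP over input for each of the 42 peaks, by locus, with filled points for an FDR under 0.05 and black lines for medians. The grey bar gives the interquartile range of all 17149 listed peaks (1.99 to 2.60), and the Msx1 locus reaches 4.11 while all 13 Dlx5/Dlx6 peaks stay at or below 2.28.

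Msx1 had the most enriched members. This gene encodes a repressor that is expressed in the limb mesenchyme under BMP control. Its 10 peaks fell into 3 places, all upstream of the gene on chromosome 5. At the promoter, the GBR ranked 2478 lay 119 bp upstream of the TSS (chr5:37824550-37824849) with a log2 fold enrichment of 2.90 and an FDR listed as 0. Within 2.41 kb of it lay 3 weaker peaks, at 2.13, 2.31 and 2.06, and all 3 missed the threshold, with FDRs of 0.233, 0.0704 and 0.438.

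The second place was 69.3 to 71.5 kb upstream, inside the noncoding gene Gm20052, where 5 summits lay within 2.22 kb. The GBR ranked 855 had a log2 of 3.44 and a −log10 Poisson p-value of 30.3 (chr5:37893500-37894099). Beside it, the GBR ranked 7128 had a log2 of 2.33 and an FDR of 0.0374. The other 3 had log2 values of 2.02, 2.17 and 1.74 and were not GBRs. TAATTA lay within 250 bp of the summit at 4 of these 5 peaks, compared with 12.5% of listed peaks, but the windows overlap and the 4 peaks hold 3 distinct sites. In those ranked 12288 and 17009 it lay 13 and 15 bp from the summit.

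The third place held a lone peak, the most enriched of all 42. The GBR ranked 188 was intergenic, 93.6 kb upstream of Msx1 (chr5:37917800-37918499), with a log2 fold enrichment of 4.11 and a −log10 Poisson p-value of 62.8. No other listed summit lay within 20 kb of it. A best value of at least 4.11 within 100 kb was found for 3.59% of protein-coding genes. None of the 10 Msx1 peaks held a GLI motif within 250 bp of the summit, and the whole length of each peak held none either. All 10 had Msx1 as the protein-coding gene with the nearest TSS.

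Msx2, the close relative of Msx1 with a related role in limb and skull, showed no GBR within 100 kb, where 53.9% of protein-coding genes had at least 1. Its 3 listed peaks, on chromosome 13, had log2 values of 2.26, 1.86 and 1.90. The best of them (rank 8102, chr13:53462400-53462949) lay 10.6 kb downstream of the Msx2 5′ end and had an FDR of 0.0709. The other 2 lay 6.62 kb downstream and 70.3 kb upstream. At least 3 listed peaks within 100 kb were found for 41.1% of protein-coding genes, and at least 10, the Msx1 number, for 4.14%.

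**Figure D2:**
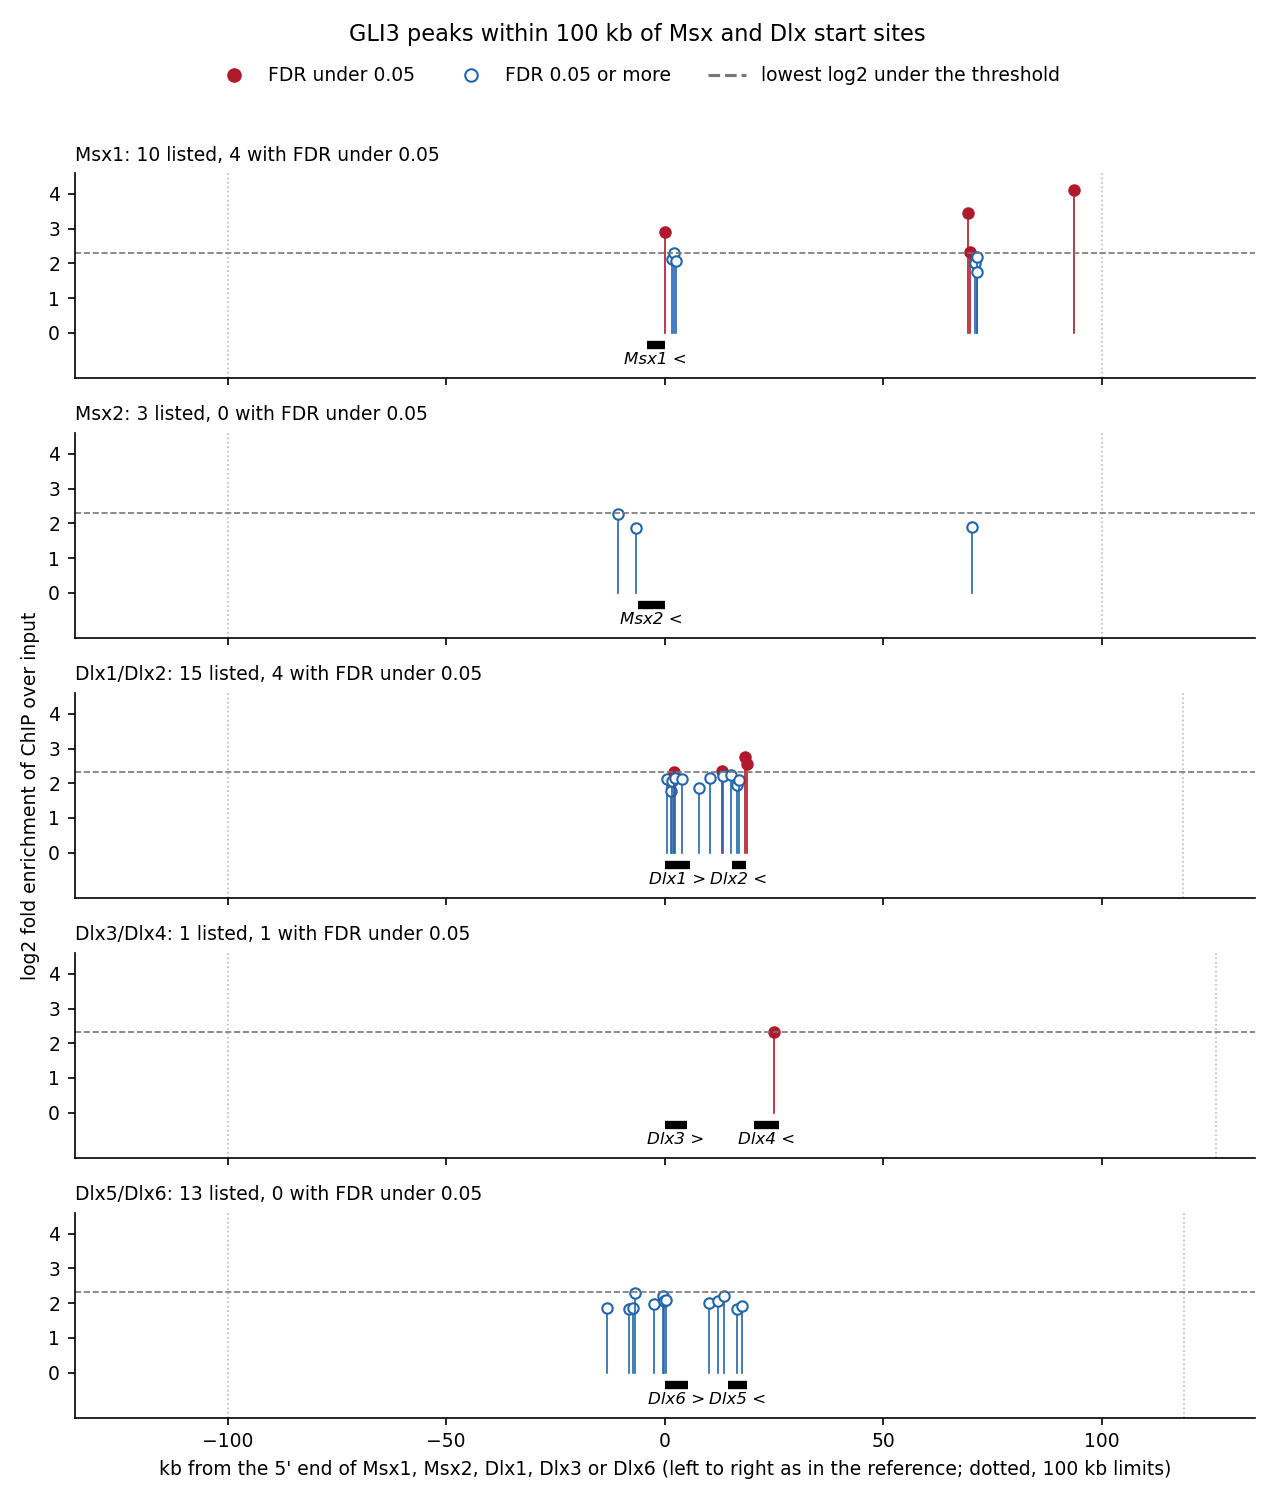
Position and log2 fold enrichment of the 42 peaks in kb from the 5′ end of the gene named on the axis, with bars for the genes and arrowheads for their direction. Msx1 peaks sit at the promoter, near 70 kb and at 93.6 kb upstream, whereas the Dlx1/Dlx2 and Dlx5/Dlx6 peaks lie across both gene pairs within 18.6 and 31.1 kb.

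Dlx1 and Dlx2, a convergent pair known for the differentiation of forebrain interneurons and also expressed in limb ectoderm, had the largest number of peaks of the 5 loci. The 15 peaks covered 18.6 kb of chromosome 2, with a median gap of 1082 bp between summits, and 0.743% of protein-coding genes had at least as many within 100 kb. There were 4 GBRs, and 9.85% of protein-coding genes had at least 4 within 100 kb. A best log2 of at least 2.75, that of this locus, was found for 34.6%. Those with the best ranks lay on both sides of the Dlx2 TSS, the GBR ranked 3264 in the 5′ UTR 307 bp downstream (chr2:71546300-71546649, log2 2.75, FDR 0.00113) and the GBR ranked 4674 at 298 bp upstream (chr2:71546700-71547099, log2 2.55, FDR 0.00705). The remaining 2 were near the threshold, at an FDR of 0.0374. They were the GBR ranked 7108 in a coding exon of Dlx1 (chr2:71530100-71530249, log2 2.33, 190 bp from an annotated Dlx1 TSS) and the GBR ranked 6670 between the genes (chr2:71541000-71541149, log2 2.36).

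The other 11 Dlx1/Dlx2 peaks ran from 1.78 to 2.25. Among them was the intergenic peak ranked 9651 (chr2:71538350-71538649), which carried the exact GLI consensus at its summit yet had a log2 of 2.16 and an FDR of 0.148. The peak ranked 8228 had a log2 of 2.25, an FDR of 0.0763 and its motif 203 bp from the summit, beyond the edge of the listed peak. The GBR of the locus with the highest log2, in the Dlx2 5′ UTR, held no GLI motif but had GGCGCC 1 bp and TAATTA 45 bp from its summit. Dlx1 and Dlx1as overlap, and a peak in their shared span cannot be given to either gene.

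Dlx3 and Dlx4, a pair linked to epidermis and placenta, had a single listed peak. This GBR (rank 7163, chr11:95145050-95145299) lay in Dlx4, 1.14 kb downstream of its 5′ end, where the summit is in an exon of the antisense gene Dlx4os, and 674 bp from the nearest annotated TSS of Dlx4. It had a log2 of 2.32 and an FDR of 0.0374, so it was close to the threshold. Its GLI motif, GACAACCCA, lay 25 bp from the summit.

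Dlx5 and Dlx6, the pair whose loss gives split hand and foot malformations, had 13 listed peaks and no GBR within 100 kb, beside the same 53.9% of genes with at least 1. The log2 values ran from 1.82 to 2.28 with a median of 2.01. An FDR of 1 was listed for 4 of the 13, compared with 1860 of the 17149 listed peaks. The best peak (rank 7736, chr6:6856400-6856649) lay 6.78 kb upstream of Dlx6 in an intron of the noncoding gene Dlx6os1, with an FDR of 0.0704. Peaks at the Dlx6 promoter, 492 and 77 bp upstream and 353 bp downstream of the 5′ end, had log2 values of 2.2, 2.06 and 2.1. In Dlx5 itself there were 2 peaks, at 1.82 and 1.92. At least 13 listed peaks within 100 kb were found for 1.5% of protein-coding genes. No GLI motif lay within 250 bp of any of the 13 summits.

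The Dlx1/Dlx2 and Dlx5/Dlx6 peaks stood close together, so they were compared with other dense stretches of the list, a comparison chosen after seeing the data. Joining summits at most 20 kb apart gave 47 clusters of 10 or more listed peaks across the genome. Dlx1/Dlx2 shared place 13 by size and Dlx5/Dlx6 shared place 19, with Hox clusters at the top. The median share of GBRs in the 47 clusters was 38.5%. The Dlx1/Dlx2 cluster had 26.7%, with 9 clusters lower, and Dlx5/Dlx6 had 0%, the only cluster of the 47 without a GBR. The next lowest had 9.09%. The best value in Dlx5/Dlx6, 2.28, was the lowest best value of the 47, and the next was 2.50. This follows from its lack of a GBR, since no GBR in the list had a log2 under 2.31.

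**Figure D3:**
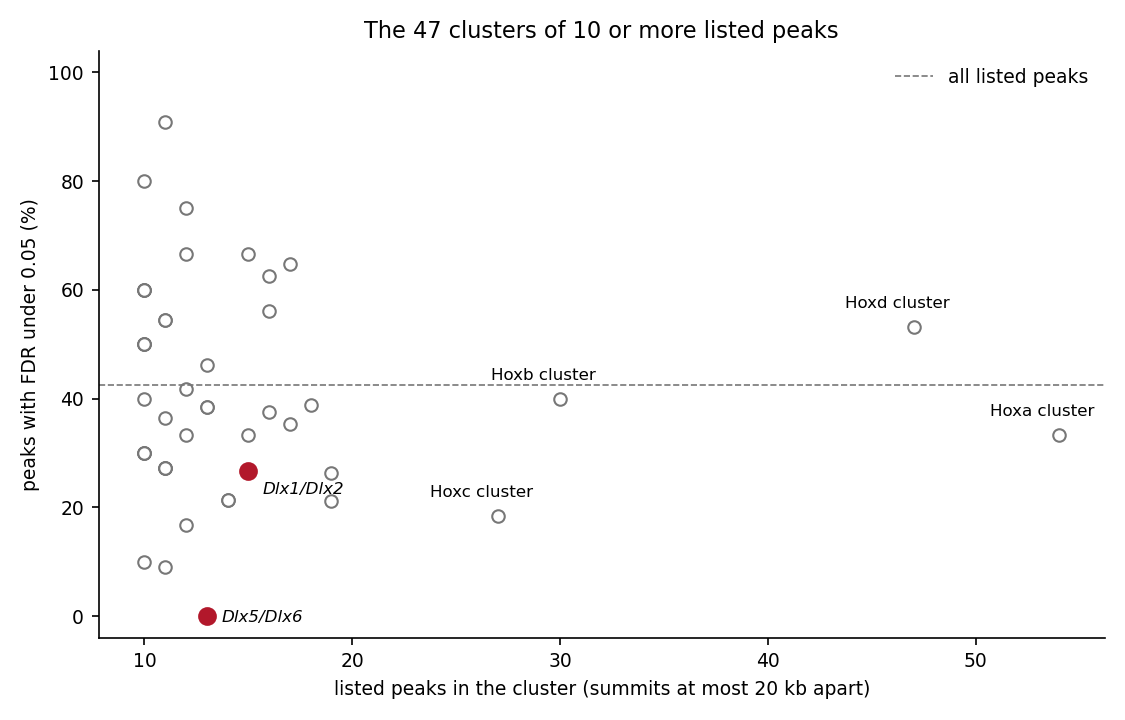
Share of peaks with an FDR under 0.05 against the number of listed peaks for the 47 clusters of 10 or more, with the dashed line at 42.5% for the whole list. Dlx1/Dlx2 (15 peaks, 26.7%) and Dlx5/Dlx6 (13 peaks, 0%) are filled, and the Hox clusters are the largest.

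Density alone was set beside the FDR, again after seeing the data. A member peak had a median of 9.5 other summits within 20 kb, compared with 1 in the list. Of the members, 21 had 10 or more such neighbours, and 4 of these were GBRs (19.0%, 7.67 to 40.0). Of the 350 other listed peaks with as many neighbours, 134 were GBRs (38.3%). With 5 to 9 neighbours, 0 of 7 members and 44.0% of the other listed peaks were GBRs, and with 3 or 4 neighbours 3 of 9 members and 45.6%. With 1 or 2 neighbours the values were 0 of 2 members and 43.3%. Without any neighbour within 20 kb, 2 of 3 members and 40.9% of the others were GBRs.

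Counted by gene, 5 of the 8 members (Msx1, Dlx1, Dlx2, Dlx3 and Dlx4) had a GBR within 100 kb, compared with 53.9% of 21938 protein-coding genes. Paired genes share their peaks, so this is 3 of 5 loci. At an FDR under 0.01 it was 3 genes, and the GBR ranked 7163, on which Dlx3 and Dlx4 rest, was also lost when as many peaks were taken by Poisson p-value. No share of all protein-coding genes is given for an FDR under 0.01, where the share of listed peaks fell from 42.5% to 28.9%. A GBR overlapped the promoter window (2 kb before to 1 kb after a TSS) of Msx1, Dlx2 and Dlx4, that is 3 of 8 members, compared with 17.2% of protein-coding genes. The Dlx1 GBR ranked 7108 was not counted because its nearest TSS is outside the basic protein-coding transcripts that define promoters here. Of all 42 peaks, 10 were at a member promoter (23.8%, 13.5 to 38.5), whereas 48.1% of the list was at the promoter of some protein-coding gene. Of these 10 member peaks 4 were GBRs, and the share of GBRs among all listed promoter peaks is not given here. By annotation, 16 of the 42 summits were intergenic, 10 in introns of noncoding genes, 6 in noncoding exons, 4 in a 5′ UTR, 3 in coding exons and 3 in introns of protein-coding genes.

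Motif shares were then compared with the list. A GLI motif lay within 250 bp of the summit at 3 of 42 member peaks (7.14%, 2.46 to 19.0) and at 17.9% of listed peaks. Inside the listed peak itself it was found at 2 of the 42 (4.76%). In windows 2 kb to either side of the member summits it was in 5 of 84 (5.95%, 2.57 to 13.2), compared with 10.6% beside all summits. These windows were not kept clear of other listed peaks. Member summits had a median of 9.5 others within 20 kb and listed summits 1, so the windows are no background free of peaks. Among GBRs it was in 1 of 9 members and 20.8% of the list. The exact consensus was in 1 of 42 peaks (2.38%) and in 2.17% of the list. A lack of these letters in the window says nothing about which protein was bound.

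The homeodomain site TAATTA was in 10 of 42 member peaks (23.8%, 13.5 to 38.5) and in 12.5% of listed peaks. These were 5 at Msx1, 4 at Dlx1/Dlx2 and 1 at Dlx5/Dlx6, and 2 of the 10 were GBRs, beside 21.4% of all 42 members. The Msx1 peaks ranked 9362 and 17009 share a site, and with shared sites counted once in members and list alike the shares were 9 of 42 (21.4%, 11.7 to 35.9) and 12.3%. The interval with every peak counted left out the share in the list, and this interval included it. Neither interval is a test, because neighbouring peaks are not independent. The SMAD site GGCGCC was in 10 of 42 (23.8%), and in 23.9% of the list. The GBRs among these 10 were those ranked 188, 3264, 4674 and 7163. The share of GBRs among all listed peaks with either site is not given here. With shared sites counted once, among them that of the Msx1 peaks ranked 7358 and 11666, the shares were 9 of 42 (21.4%) and 23.1%. Both sites are palindromes and were matched exactly, and an exact match of either cannot overlap the exact GLI consensus. The GLI motif counted here allows 1 mismatch, and such a match can share an end base with either site. The median GC content within 250 bp was 53.1% at the members and 55.9% in the list, and a GC content of 60% or more was found at 8 of 42 members (19.0%) and 39.1% of the list. The part of base composition in the motif shares was not tested.

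**Figure D4:**
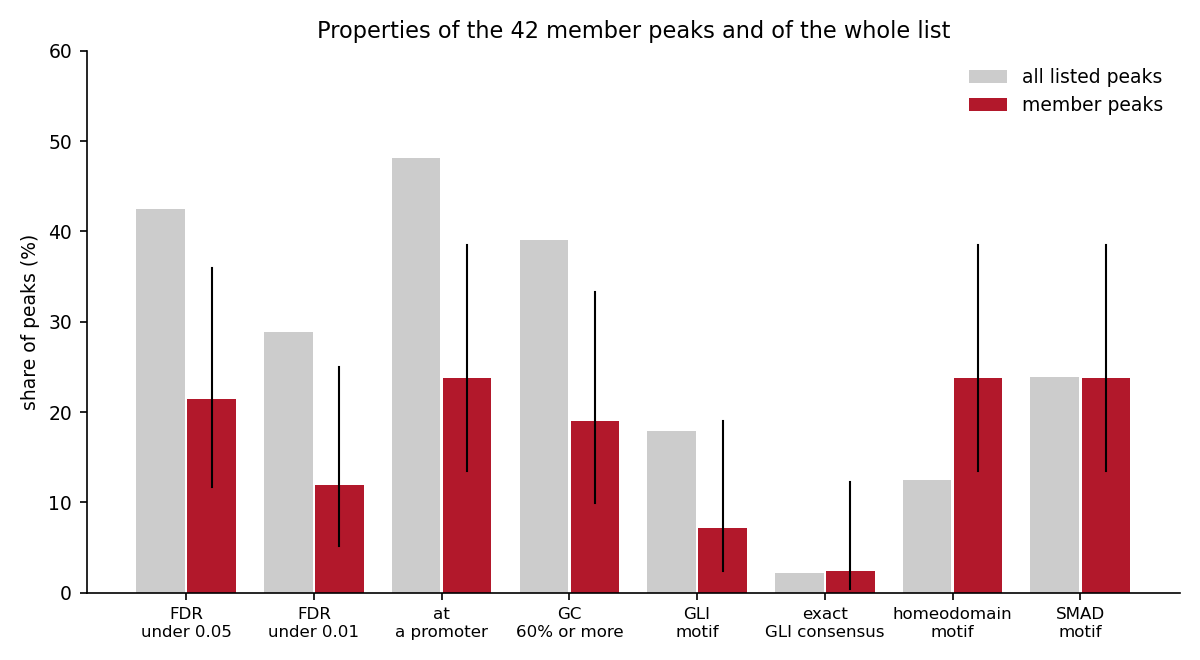
Share of the 42 member peaks (dark bars, lines for 95% Wilson intervals) and of all listed peaks (grey bars) with each property. GBRs (21.4% and 42.5%), promoters (23.8% and 48.1%) and high GC content (19.0% and 39.1%) are less frequent among the members, and GGCGCC is at nearly the same level (23.8% and 23.9%).

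RefSeq promoter sequences of 300 bases (GRCm38.p6) were matched for Msx1, Msx2, Dlx1 and Dlx2, and not for Dlx3, Dlx4, Dlx5 and Dlx6. A GLI motif was in the Dlx1 promoter and in 6.74% of 32851 promoters. TAATTA was in the Msx2 promoter and in 5.29% of all promoters. GGCGCC was in the Dlx2 promoter and in 11.9% of all promoters.

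Peaks on both sides of the 100 kb limit were listed without a test. The farthest member inside was the Msx1 GBR at 93.6 kb (log2 4.11). The nearest outside was the GBR ranked 2957, 109 kb upstream of Dlx2 (chr2:71655600-71656399, log2 2.80, FDR listed as 0). It had Dlx2 as its nearest protein-coding TSS and a GLI motif, GACCTCCCA, 12 bp from its summit. Next came the GBR ranked 3437 in the 5′ UTR of Samd14, 110 kb from Dlx3 (log2 2.72), and the GBR ranked 6523 near Tac4, 113 kb from Dlx4 (log2 2.38). The Samd14 GBR also held a GLI motif, GACCCCCCA, 62 bp from its summit.

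Widening the distance to 500 kb added 10 GBRs at Msx2 and 10 at Dlx3/Dlx4. From 100 to 500 kb there were 51 further peaks around the 5 loci, of which 28 were GBRs (54.9%, compared with 42.5% of the whole list), but only the Dlx2 peak ranked 2957 had a member as its nearest protein-coding TSS. A GLI motif was at 3 of these 28 GBRs, those ranked 2957, 3437 and 1786, compared with 20.8% of all GBRs. Msx2 had 10 GBRs in this range, all downstream, the nearest 152 kb away. Ror2, a receptor for WNT5A that is needed for digit growth, held 7 of them and was the nearest gene of 9. The strongest were in introns of Ror2, the GBR ranked 279 at 290 kb (chr13:53183100-53183699, log2 3.95) and the GBR ranked 442 at 271 kb (log2 3.76). The remaining GBR was in an intron of Nfil3 (rank 3157, log2 2.77).

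Within 500 kb, GBRs were 8 of 18 listed peaks at Msx1, 10 of 19 at Msx2, 7 of 20 at Dlx1/Dlx2, 11 of 21 at Dlx3/Dlx4 and 1 of 15 at Dlx5/Dlx6, again beside 42.5% of the list. The Dlx5/Dlx6 GBR (rank 3996, log2 2.64) lay 399 kb from Dlx6 in an intron of the noncoding gene Gm20617. The additional Msx1 GBRs were a pair 143 and 144 kb upstream (log2 2.82 and 2.38) and a pair beside the TSSs of Evc and Evc2, 488 and 486 kb downstream (log2 3.30 and 3.75). Evc and Evc2 encode ciliary proteins of the HH pathway. Around Dlx3/Dlx4 the highest was the GBR ranked 341 near Col1a1, 191 kb from Dlx3 (log2 3.86).

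**Figure D5:**
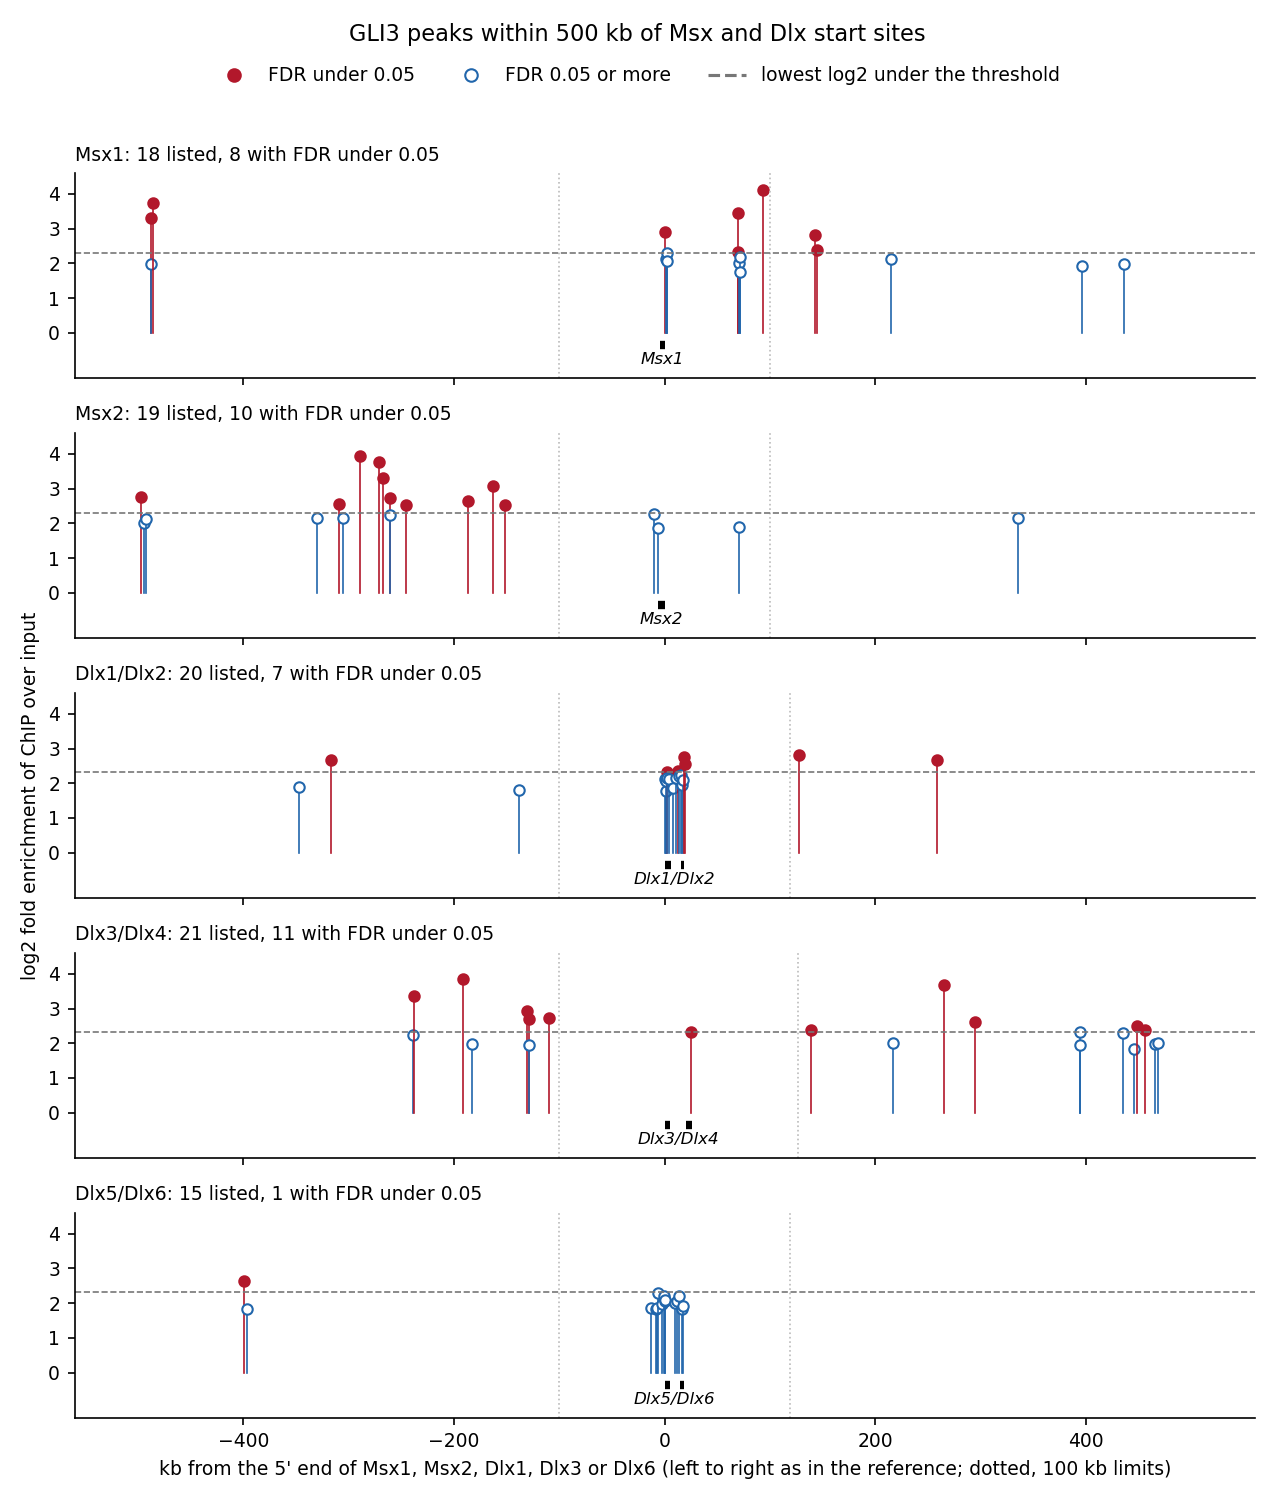
Listed peaks within 500 kb of the member start sites, in kb from the 5′ end of the gene named on the axis, with dotted lines at the 100 kb limits. Msx2 has 10 GBRs (filled), all beyond 100 kb on its downstream side, and Dlx5/Dlx6 has 1, at 399 kb.

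Genes that act with the members were counted by the same rule. Of 15 BMP pathway genes, 12 had a GBR within 100 kb and 6 had 1 at the promoter, and 47 of their 96 listed peaks were GBRs (49.0%, 39.2 to 58.8). Over the whole list 42.5% of peaks were GBRs, which lies inside this interval, and 53.9% of protein-coding genes had a GBR within 100 kb and 17.2% at the promoter. The best-ranked peaks were those of Smad6 (rank 182, log2 4.12), an inhibitor of BMP signaling, of Id2 (rank 215, 4.07), a BMP target, and of the receptor gene Bmpr2 (rank 227, 4.04). The ligand gene Bmp4 had 3 listed peaks and no GBR. Of 11 genes of the limb ectoderm and ridge, 7 had a GBR within 100 kb and 3 at the promoter, with 16 of 34 peaks GBRs (47.1%, 31.5 to 63.3), an interval that also includes the share in the list. The best were near Sp6 (rank 801, log2 3.47), Fgf8 (rank 955, 3.38) and Wnt3 (rank 1444, 3.17).

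Other homeobox genes were counted in the same way. Of 8 paired-type genes, 7 had a GBR within 100 kb and the same number had 1 at the promoter, and 29 of 58 peaks were GBRs (95% interval 37.5% to 62.5%). The best were near Prrx1 (rank 300, log2 3.92), Prrx2 (rank 306, 3.92) and Alx4 (rank 873, 3.42), which act in limb mesenchyme. Among 8 LIM homeobox and cofactor genes, 7 had a GBR within 100 kb and 6 at the promoter, with 24 of 50 peaks GBRs (48.0%, 34.8 to 61.5). The best were near Lmx1b (rank 332, log2 3.88), which sets dorsal identity in the limb, Ldb1 (rank 890, 3.42) and Lhx9 (rank 2402, 2.92). Both intervals include the 42.5% of the whole list, beside 53.9% of protein-coding genes with a GBR within 100 kb and 17.2% with 1 at the promoter. The corresponding share of peaks at the Msx and Dlx genes was 21.4%, and no test of these differences was made because peaks are not replicates.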

How the data were processed

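GLI3-FLAG ChIP-seq of forelimb buds was described from 1 deposited peak list, attached to the record of ChIP replicate 1. The study called peaks with CisGenome on 2 biological replicates, so the list was taken as a joint call over the input, which the list does not state. Its 7282 peaks with an FDR under 0.05 equal the number of GBRs that the study reports from 2 replicates. The submitters' processing notes name Bowtie2 (2.2.5) and mm10. For every region the authors list a q-value, termed FDR, the maximum log2 fold enrichment, a T statistic (a score by which peaks are ranked) and a Poisson p-value as its −log10. No values per replicate were used, and library depth is not given in the list.

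From there, TSSs of all member transcripts came from GENCODE (M21), and promoters and nearest TSSs from its basic protein-coding transcripts. Coordinates are printed as listed. They fitted GRCm38.p6, with 0 peak ends past a chromosome end, and 5 peaks on unplaced sequence had no position. Sequences were read from GRCm38.p6 with samtools (1.23.1), and python (3.11.15), pandas (2.3.3) and scipy (1.17.1) did the rest. Motif and distance scripts were tested on simulated data. The 8 members, the gene lists, and all summits and genes nearest to or holding them were named by rule. Members and lists were chosen with earlier results of these data known. Alternatives changed the distance, the FDR threshold, the start sites counted, the motif and its window, the promoter window and the loci included.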

Additional observations from a re-analysis of the deposited data

How the results depend on the processing

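Alternatives were computed for 7 results, 39 in all, and 30 stayed within 1.5 times the count or inside the interval of the main value. The number of listed peaks rose from 42 to 93 within 500 kb. The number of GBRs among them fell from 9 to 5 at an FDR under 0.01 and rose to 20 within 200 kb and 37 within 500 kb, and the cause was not tested. The median log2 of 2.12 became 2.55 for GBRs alone. The GLI motif share of 7.14% became 2.38% for the exact consensus. The share of peaks at a member promoter, 23.8%, became 44.4% for GBRs alone (4 of 9). The promoter share of all GBRs in the list is not given here, so this rise cannot be read as particular to the members. The number of member genes, 5, became 3 at an FDR under 0.01 and 8 with every listed peak. Of all protein-coding genes, 53.9% had a GBR and 71.9% a listed peak, and no share is given for an FDR under 0.01. Leaving out each locus moved the share of GBRs between 15.6% and 31.0% and the median log2 between 2.06 and 2.16. Ranking by the Poisson p-value again gave 9 GBRs (21.4%), of which 6 were shared. The peaks ranked 6670, 7128 and 7163 dropped out, the last being the only GBR of Dlx3/Dlx4, and those ranked 8760, 9362 and 10225 came in. These last shares were added after seeing the data. No paired analysis was possible because per-replicate values are lacking in this joint list, which also kept either replicate from being left out. Library depth was not given in the list, and its part in the number of weak peaks was not tested.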

Other observations

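The FDR and the Poisson p-value ordered some member peaks differently. The Msx1 peak 1.56 kb upstream of the TSS (rank 10225, log2 2.13, FDR 0.233) had a −log10 Poisson p-value of 13.8, and the promoter GBR ranked 2478 (log2 2.90, FDR listed as 0) had 13.7. Between Dlx1 and Dlx2, the peak ranked 8760 (log2 2.21, FDR 0.133) also had 13.8, above the 11.6 of the GBR ranked 4674. The Dlx4 GBR (rank 7163) had 7.12, below the median of all 42 members. No explanation of these differences was tested.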
